A study of Sus scrofa with 18 samples.

Results

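Porcine cells transfected with a plasmid for the sialyltransferase ST8Sia6 were set against cells transfected with a plasmid for the fluorescent protein GFP as the control, by sequencing of total RNA. The comparison used 8 of the 18 libraries of the series. The libraries numbered KEC9, KEC11, KEC13 and KEC15 (called KEC9-15 below) stood for the ST8Sia6 plasmid, and KEC1, KEC3, KEC5 and KEC7 (called KEC1-7) for the GFP plasmid, with 4 libraries each. The sets were chosen as consecutive runs of library numbers, because the study states 4 experiments for each plasmid and because the authors' deposited fold changes rest on those runs. The sample labels differ on 1 library. KEC9 is labelled GFP control, whereas KEC11, KEC13 and KEC15 are labelled St8i6a plasmid and all 4 of KEC1-7 are labelled GFP control. All differences below are therefore between sets of libraries, and values are given in the order of the library numbers. All 8 libraries came from purchased cells described as primary kidney endothelial cells of Sus scrofa, received at passage 3, frozen at passage 5, transfected with Lipofectamine LTX and used 24 hours later. The labels do not say which libraries came from the same experiment, nor whether separate cultures stand behind them, so p-values measure only the spread between these libraries, which may be technical.

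Sialic acids are acidic sugars at the ends of cell surface glycans. Sialyltransferases attach them, and the ST8Sia enzymes add a sialic acid to a sialic acid that is already there. ST8Sia6 makes short disialic acid structures, which are ligands of inhibitory Siglec receptors on leukocytes, and the enzyme has been examined as a way to dampen immune attack on cells. Plasmid DNA and lipid carriers can by themselves set off DNA sensing and the interferon response.

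The authors' deposited table names a comparison of the St8i6a plasmid with the GFP control but not its libraries. Its fold changes were recovered when all 18 libraries were fitted together with sets of 4 consecutive library numbers, KEC39 and KEC40 each standing alone. With KEC9 placed beside KEC11, KEC13 and KEC15, no log2 fold change differed from the authors' deposited table by more than 2.2e-14. With KEC9 placed beside KEC1-7, as its label says, the largest difference from the authors' deposited table was 6.55 and the median absolute difference was 0.11. The deposited comparison was thus made with KEC9 in the ST8Sia6 set.

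The libraries came in close pairs within each set. The 8 libraries held 22600548 to 33301008 counts, with 1.22% to 2.03% from the mitochondrial genome. Over the 13810 genes tested, the mean absolute log2 difference was 0.137 between KEC9 and KEC11, 0.240 between KEC13 and KEC15, 0.227 between KEC1 and KEC3 and 0.178 between KEC5 and KEC7. The members of each of these pairs were each other's nearest library among the 8. KEC11 lay 0.239 from KEC3 across the sets but 0.344 from KEC13 in its own set, and KEC1 lay 0.529 from KEC5. Even KEC9 and KEC11, the closest pair, differed by more than sampling noise, with a chi-square over degrees of freedom of 5.08.

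**Figure D1:**
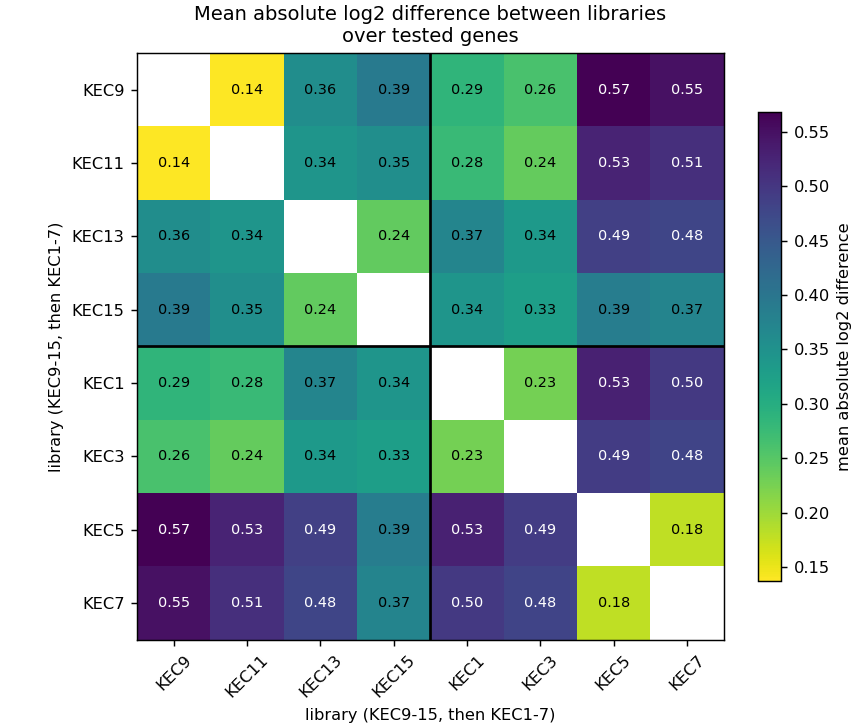
Mean absolute log2 difference between every 2 of the 8 libraries over the tested genes, with KEC9-15 first and KEC1-7 after it on both axes and the lines marking the border between the sets. The smallest values lie within the pairs KEC9 with KEC11 (0.137) and KEC5 with KEC7 (0.178), while KEC1 with KEC5, of the same set, is at 0.529.

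Endothelial transcripts, FLT1 apart, were scarce in every one of the 8 libraries. CPM here are counts scaled to a common library total, with TMM factors of the 8 libraries. The 15 endothelial markers found in the table summed to 78.7, 84.6, 85.9 and 77 CPM in the KEC9-15 libraries, against 74.5, 82.3, 94.6 and 87.7 CPM in the KEC1-7 libraries. FLT1, a receptor for the growth factor VEGF, made up a large part of each sum, at 35.7 to 63.2 CPM. The median of the mean levels of all tested genes was 22.9 CPM. PECAM1, an adhesion molecule of endothelial junctions, had 1.84, 2.31, 0.917 and 1.53 CPM in the KEC9-15 libraries, against 2.35, 2.41, 1.3 and 1.75 CPM in the KEC1-7 libraries. ERG, an endothelial transcription factor, had 0 counts in all 4 of KEC9-15 and in KEC5 and KEC7. The vascular markers CDH5, KDR and VWF were not matched by symbol and were not analysed here. Of 15240 genes, 3248 carry no symbol, which limits what the endothelial sum covers.

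Kidney epithelial markers were far more abundant by the same measure, with 27 markers in the table. They summed to 3157, 3439, 2548 and 3597 CPM in the KEC9-15 libraries, against 3993, 3369.7, 3916 and 4118 CPM in the KEC1-7 libraries. KRT8, a keratin of simple epithelia, had 968, 1071, 772 and 1287 CPM in the KEC9-15 libraries, against 1605, 1266, 1112 and 1341 CPM in the KEC1-7 libraries. CDH1, the adhesion molecule E-cadherin, had 325, 385, 161 and 224 CPM in the KEC9-15 libraries, against 309, 249, 553 and 451 CPM in the KEC1-7 libraries. PAX2, a kidney transcription factor, had 131, 123, 113 and 133 CPM in the KEC9-15 libraries, against 108, 107, 119 and 119 CPM in the KEC1-7 libraries. Markers of mesenchymal cells and matrix, 46 in the table, summed to between 58133 and 83059 CPM in KEC9-15 and between 71683 and 119558 CPM in KEC1-7. Apart from FLT1, these values went against the labelled cell type, so the libraries are called by their numbers and not by a cell type. In bulk RNA, fewer cells of a type and less RNA per cell cannot be told apart, which holds for every cell type marker below.

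ST8SIA6 (chromosome 10, 43601674 to 43755140, build susScr11), the pig gene for the enzyme that the plasmid was meant to supply, did not separate the sets. It had 1, 59, 0 and 3 counts in the KEC9-15 libraries, against 0, 27, 0 and 5 counts in the KEC1-7 libraries. These amounted to 0.0428, 2.27, 0 and 0.102 CPM in the KEC9-15 libraries, against 0, 1.02, 0 and 0.204 CPM in the KEC1-7 libraries. KEC11 held most of the counts of its set and KEC3 most of the counts of the other, and the sets overlapped. KEC11, KEC15, KEC3 and KEC7 had at least 3 counts, whereas KEC9, KEC13, KEC1 and KEC5 had 0 or 1, a split that ran through both sets. A count of 0 allowed up to 0.11 CPM in KEC13, 0.0893 CPM in KEC1 and 0.115 CPM in KEC5, from a floor of 3 counts that covers counting error only. The mean was 0.603 ± 1.11 CPM in KEC9-15 and 0.306 ± 0.485 CPM in KEC1-7 (SD, n = 4 each). The difference in log2(CPM + 0.5) of 0.19 lay within the spread of the libraries (two-sided exact permutation test over 70 regroupings, p = 0.8, smallest p possible 0.0286). Without KEC11 the difference was -0.40 (exact permutation test, p = 0.543). Whether transcripts of the plasmid were counted under this gene is not given in the sources used here.

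AEBP1 was the only gene past the threshold when the counts were fitted again, and it fell in KEC9-15. AEBP1 encodes a secreted protein that binds collagen in the extracellular matrix. It lies on chromosome 18, 51046896 to 51056698. AEBP1 had 53.4, 54.8, 63.5 and 53.3 CPM in the KEC9-15 libraries, against 120.0, 117, 146 and 133 CPM in the KEC1-7 libraries. The sets did not overlap, and the highest of KEC9-15 lay below the lowest of KEC1-7 by a wide margin. The mean was 56.2 ± 4.87 CPM in KEC9-15 and 129 ± 13.3 CPM in KEC1-7 (SD, n = 4 each). The log2 fold change was -1.2 with a standard error of 0.11 (edgeR's quasi-likelihood test, Benjamini-Hochberg adjusted p = 0.0205).

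That made 1 of 13810 genes, or 0.00724%, at an adjusted p under 0.05. An unadjusted p under 0.05 was reached by 1695 genes, or 12.3%, of which 748 (5.42%) were higher and 947 (6.86%) lower in KEC9-15. In 1036 genes, or 7.5%, the sets did not overlap, 538 of them higher (3.9%) and 498 lower (3.61%) in KEC9-15. The median log2 fold change of all tested genes was 0.00114, and 50.1% of them were positive.

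Which libraries entered and how the spread was modelled moved this count. Leaving out any 1 library gave 0 to 2 genes, and the adjusted p of AEBP1 was then between 0.0496 and 0.208 at log2 fold changes of -1.25 to -1.13. Without KEC9, when every library left has the label of its set, 0 of 13955 genes passed by edgeR's quasi-likelihood test and 1099 had an unadjusted p under 0.05. Without KEC1 and KEC3, 3917 genes passed, 1945 higher and 1972 lower, with 2 libraries left in the GFP set. Those 2, KEC5 and KEC7, are a close pair (0.178), so the spread within that set came from this pair alone. How far that moved the count was not tested. On all 8 libraries DESeq2 called 256 genes, 94 higher and 162 lower, and edgeR's likelihood ratio test called 120, 37 higher and 83 lower. AEBP1 passed in both of these as well.

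Of the genes with higher levels in KEC9-15, none passed. The 6 with the lowest p and a mean of at least 5 CPM in either set were RPL22L1, PLPP3, TIMELESS, LIG1, IRAK3 and TNFSF14, and in each the sets did not overlap. Because they were picked by p between these same sets, the lack of overlap is not separate evidence. PLPP3 (chromosome 6, 155801012 to 155894918), a membrane phosphatase that breaks down signalling lipids such as lysophosphatidic acid, had 144, 127, 223 and 103 CPM in the KEC9-15 libraries, against 60.4, 59.1, 60.1 and 55.6 CPM in the KEC1-7 libraries. KEC13 was the highest and the KEC1-7 libraries lay close together. The log2 fold change of PLPP3 was 1.34 (SE 0.21), with an adjusted p of 0.137 by edgeR's quasi-likelihood test.

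RPL22L1 (chromosome 13, 109495553 to 109499921), a paralog of the ribosomal protein RPL22, had 37, 32.8, 45.2 and 43.6 CPM in the KEC9-15 libraries, against 21.7, 21.3, 22.4 and 23.9 CPM in the KEC1-7 libraries. Its log2 fold change was 0.83 (SE 0.13), with an adjusted p of 0.137 by edgeR's quasi-likelihood test. Both KEC13 and KEC15 exceeded KEC9 and KEC11.

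A pair of the 6 act in DNA replication. TIMELESS (chromosome 5, 21759474 to 21787521), which protects the replication fork, had 21.4, 21.8, 20.8 and 20.3 CPM in the KEC9-15 libraries, against 13.5, 13.7, 9.78 and 11.9 CPM in the KEC1-7 libraries. LIG1 (chromosome 6, 53620483 to 53686562), the ligase that joins DNA fragments on the lagging strand, had 66.4, 68.7, 77.9 and 69.1 CPM in the KEC9-15 libraries, against 44.8, 51.2, 38.4 and 39.2 CPM in the KEC1-7 libraries. Their log2 fold changes were 0.79 (SE 0.13) for TIMELESS and 0.70 (SE 0.12) for LIG1, both with an adjusted p of 0.137 by edgeR's quasi-likelihood test. In both genes KEC5 and KEC7 were the lowest libraries.

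The other pair of the 6 belong to inflammatory signalling. IRAK3 (chromosome 5, 30525948 to 30609922), an inhibitor of signalling from Toll-like and interleukin-1 receptors, had 108, 94.2, 161 and 112 CPM in the KEC9-15 libraries, against 68, 67.9, 61.2 and 57.6 CPM in the KEC1-7 libraries. TNFSF14 (chromosome 2, 72473477 to 72484017), a cytokine of the TNF superfamily also called LIGHT, had 5.14, 3.77, 12.4 and 3.05 CPM in the KEC9-15 libraries, against 0.596, 1.24, 0.42 and 0.245 CPM in the KEC1-7 libraries. KEC13 was the highest library in both genes. The log2 fold change was 0.90 (SE 0.16) for IRAK3 and 3.27 (SE 0.60) for TNFSF14, each with an adjusted p of 0.18 by edgeR's quasi-likelihood test. TNFSF14 overlaps the complement gene C3 on the same strand, and C3 averaged 1723 and 803 CPM in KEC9-15 and KEC1-7, so the counts of the pair may not be fully separate.

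On the lower side, AEBP1 was joined by F3, SPOCK2, GRAMD2B and SH2D5, none of which passed, and in each the sets did not overlap. These were picked by p in the same way, so that lack of overlap is not separate evidence either. F3 (chromosome 4, 122826992 to 122837672), the tissue factor that starts blood coagulation, had 5.43, 5.5, 9.02 and 9.36 CPM in the KEC9-15 libraries, against 19.6, 20.8, 30.6 and 24.7 CPM in the KEC1-7 libraries. KEC9 and KEC11 were the lowest and KEC5 the highest. The log2 fold change of F3 was -1.7 (SE 0.24), with an adjusted p of 0.122 by edgeR's quasi-likelihood test. F3 overlaps ABCD3 on the opposite strand, which averaged 48.2 and 42 CPM in KEC9-15 and KEC1-7.

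SPOCK2 (chromosome 14, 74938179 to 74968388), a secreted proteoglycan of the extracellular matrix, had 3.85, 3.0, 4.03 and 4.0 CPM in the KEC9-15 libraries, against 16.9, 29.9, 12.1 and 11.5 CPM in the KEC1-7 libraries. KEC3 was the highest, and the KEC9-15 libraries lay between 3.0 and 4.03 CPM. The log2 fold change of SPOCK2 was -2.24 (SE 0.31), with an adjusted p of 0.122 by edgeR's quasi-likelihood test.

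GRAMD2B (chromosome 2, 129511088 to 129619687), a membrane-associated protein with a GRAM domain, had 35.9, 40.9, 38.7 and 38.4 CPM in the KEC9-15 libraries, against 59.7, 53.9, 67.4 and 61.6 CPM in the KEC1-7 libraries. SH2D5 (chromosome 6, 78954508 to 78967530), an adaptor protein with an SH2 domain, had 9.2, 9.34, 8.95 and 9.53 CPM in the KEC9-15 libraries, against 15.4, 15, 19 and 14.6 CPM in the KEC1-7 libraries. Both genes differed less in size but also little within each set. Their log2 fold changes were -0.66 (SE 0.10) for GRAMD2B and -0.79 (SE 0.13) for SH2D5, both with an adjusted p of 0.137 by edgeR's quasi-likelihood test.

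**Figure D2:**
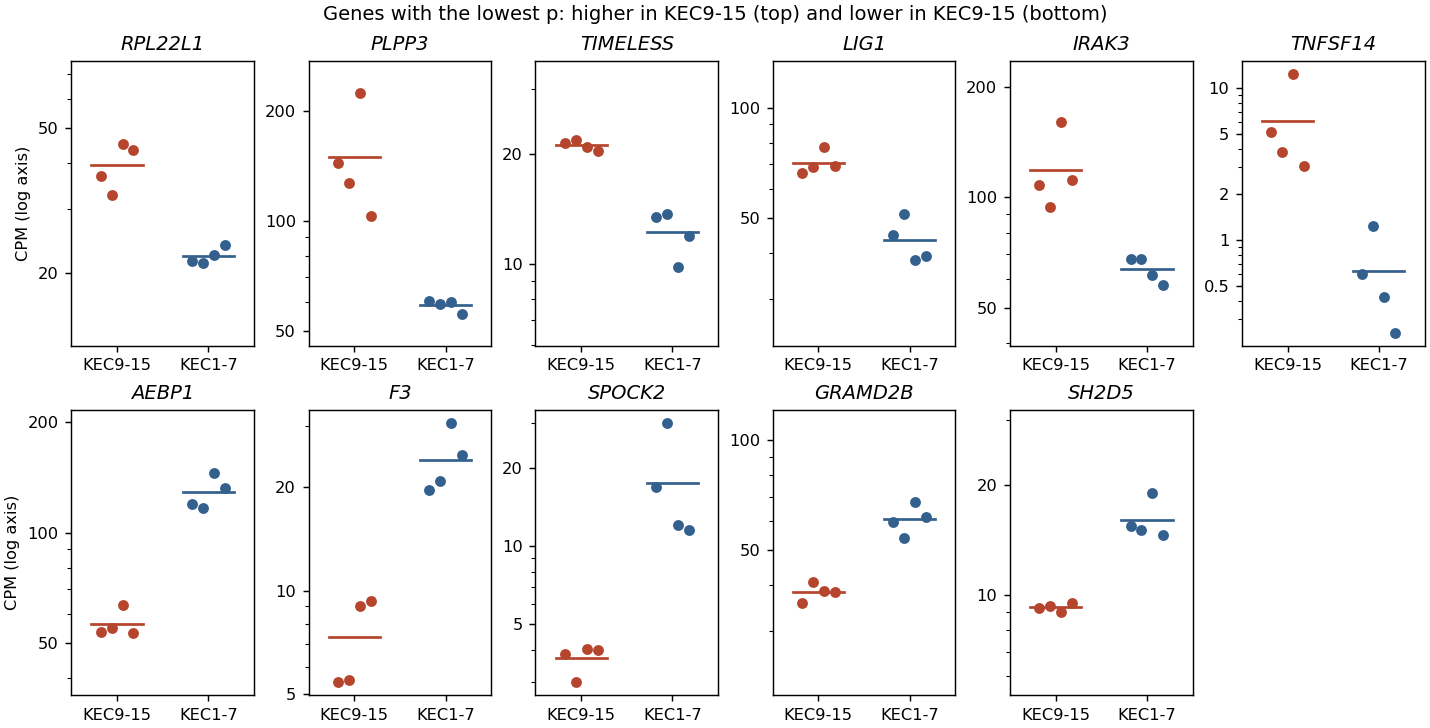
CPM of the genes with the lowest p that are described above, higher in KEC9-15 in the top panels and lower in the bottom panels, 1 point per library on a log axis that differs between panels, with KEC9-15 left of KEC1-7, points in the order of the library numbers and lines at the means (n = 4 each). In every panel the sets do not overlap, with the genes picked by p between these same sets. AEBP1, at 53.3 to 63.5 CPM against 117 to 146 CPM, is the 1 gene past the threshold.

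Gene lists for 28 pathways and cell types held 575 tested genes between them, none of which passed in edgeR's quasi-likelihood test, against 120 at an unadjusted p under 0.05 (56 higher and 64 lower in KEC9-15). DESeq2 called 17 of them higher and 12 lower, and edgeR's likelihood ratio test 9 higher and 8 lower. The lists are therefore described by their members' values, their counts and their medians, beside the figures for all genes given above.

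**Figure D3:**
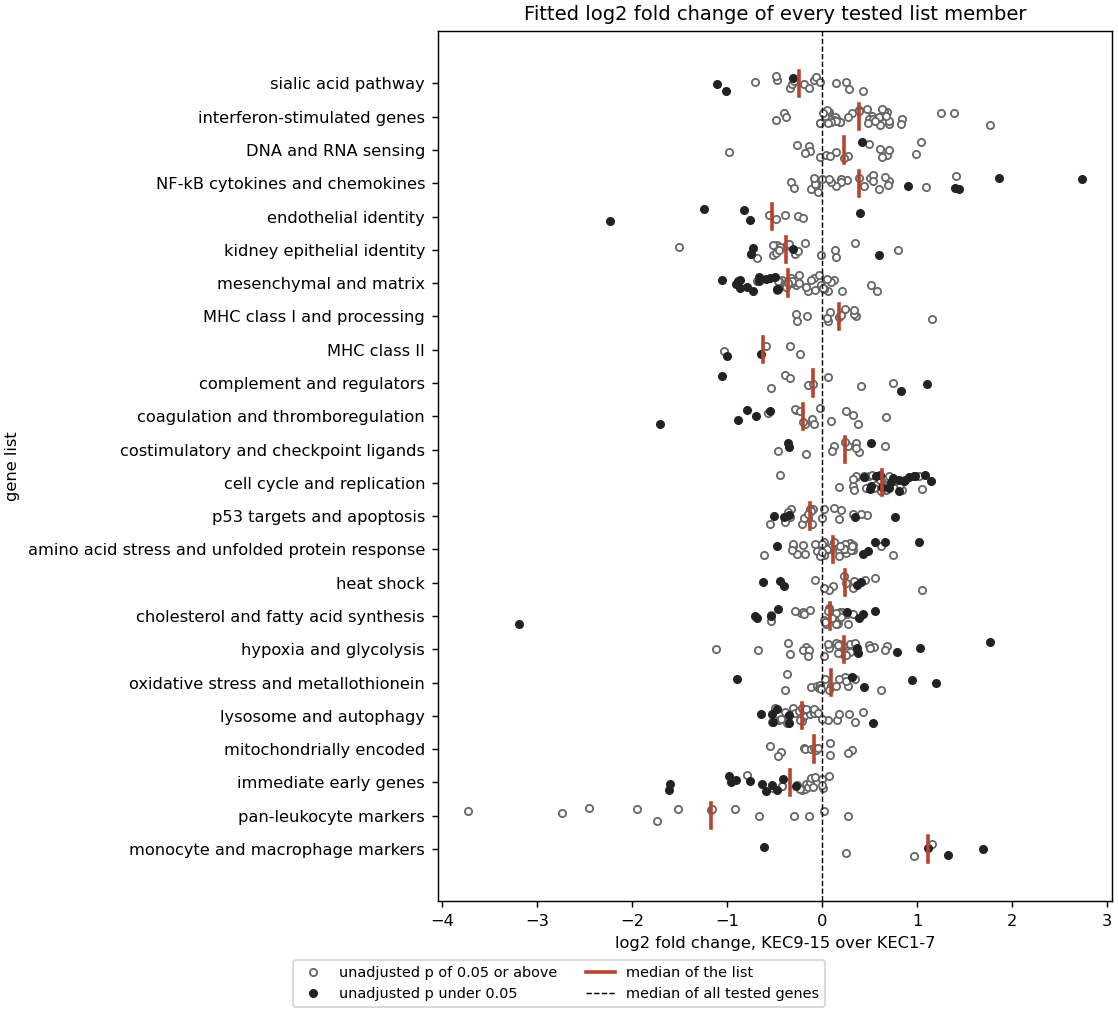
Fitted log2 fold change, KEC9-15 over KEC1-7, of every tested member of the lists with at least 5 tested genes. Filled points have an unadjusted p under 0.05, coloured ticks are list medians and the dashed line is the median of all genes at 0.00114; the cell cycle list (median 0.62) and the immediate early list (median -0.34) lie almost wholly on 1 side.

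The enzymes of the sialic acid pathway mostly had negative log2 fold changes, at 14 of 18 tested members with a median of -0.25. At an unadjusted p under 0.05 there were 0 higher and 3 lower members, against 5.42% and 6.86% of all genes. Without KEC5 and KEC7 the median was -0.012, with 10 of 20 members positive. ST3GAL5, which makes the ganglioside GM3, had 8.73, 9.8, 9.35 and 12.5 CPM in the KEC9-15 libraries, against 10.1, 10.8, 32 and 34.3 CPM in the KEC1-7 libraries. SIAE, an esterase that removes acetyl groups from sialic acid, had 6.29, 7.38, 7.96 and 12.4 CPM in the KEC9-15 libraries, against 9.8, 8.33, 28.8 and 22 CPM in the KEC1-7 libraries. KEC5 and KEC7 stood above the other 6 libraries in both genes, and KEC1 and KEC3 lay within the KEC9-15 range.

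NEU3, a sialidase of the plasma membrane that acts on gangliosides, had 10.1, 8.92, 8.07 and 10.4 CPM in the KEC9-15 libraries, against 11.4, 11.2, 11.2 and 12.5 CPM in the KEC1-7 libraries. It was the 1 member whose sets did not overlap, where 3.61% of all genes lay wholly below KEC1-7. Log2 fold changes were -1.11 (SE 0.41) for ST3GAL5, -1.01 (SE 0.41) for SIAE and -0.31 (SE 0.13) for NEU3, with adjusted p-values of 0.368, 0.387 and 0.394 by edgeR's quasi-likelihood test. ST8SIA5, of the same enzyme family as ST8SIA6, had 6.33, 8.0, 6.31 and 8.07 CPM in the KEC9-15 libraries, against 7.56, 6.03, 16.6 and 16.8 CPM in the KEC1-7 libraries. NANS, which makes the sialic acid precursor in the cytosol, had 176, 167, 165 and 140.4 CPM in the KEC9-15 libraries, against 153, 146, 87.6 and 94.7 CPM in the KEC1-7 libraries, with KEC5 and KEC7 the lowest. Of the xenoantigen genes, CMAH, which makes the non-human sialic acid Neu5Gc, was the 1 found in the table, and at up to 0.0384 CPM in KEC9-15 and 0.716 CPM in KEC1-7 it was too low to test.

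Interferon-stimulated genes split within each set rather than between the sets. The mean log2(CPM + 0.5) of the 43 tested members was 7.77, 7.67, 5.36 and 4.80 in the KEC9-15 libraries, against 7.26, 6.94, 5.48 and 5.73 in the KEC1-7 libraries. KEC9, KEC11, KEC1 and KEC3 were the high libraries and KEC13, KEC15, KEC5 and KEC7 the low ones. CXCL10, a chemokine induced by interferon, had 363, 276, 7.56 and 1.36 CPM in the KEC9-15 libraries, against 101, 86.8, 1.41 and 1.06 CPM in the KEC1-7 libraries. RSAD2, the antiviral protein viperin, had 2970.3, 2720.2, 104 and 40.2 CPM in the KEC9-15 libraries, against 1243, 789, 81.3 and 125 CPM in the KEC1-7 libraries. IFIT1, which binds foreign RNA, had 1548, 1397, 107 and 70.6 CPM in the KEC9-15 libraries, against 881, 549, 147 and 183 CPM in the KEC1-7 libraries.

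The same 4 libraries were the high ones in each of these 3 genes. IFNB1, which encodes interferon beta, had 2.4, 2.54, 0 and 0 CPM in the KEC9-15 libraries, against 1.22, 1.09, 0 and 0 CPM in the KEC1-7 libraries. Positive log2 fold changes were found in 38 of 43 members, with a median of 0.39, but 0 members had an unadjusted p under 0.05. The median was -0.05 without KEC9, -0.38 with KEC9 grouped by its label, -1.49 without KEC9 and KEC11 and 1.16 without KEC1 and KEC3. PARP14, an ADP-ribosyltransferase, had the lowest p of the list, at 335, 330.0, 157 and 97.1 CPM in the KEC9-15 libraries, against 193, 157, 106 and 116 CPM in the KEC1-7 libraries. Its log2 fold change was 0.68 (SE 0.39), with an adjusted p of 0.457 by edgeR's quasi-likelihood test, and it overlaps HSPBAP1 on the opposite strand (8.12 and 7.2 CPM in KEC9-15 and KEC1-7).

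Nucleic acid sensors followed a similar layout. CGAS, the sensor of cytosolic DNA, had 23.4, 21.7, 7.56 and 6.24 CPM in the KEC9-15 libraries, against 10.3, 10.3, 4.66 and 4.45 CPM in the KEC1-7 libraries. STING1, the adaptor that CGAS activates, had 14.6, 15.1, 10.2 and 11.6 CPM in the KEC9-15 libraries, against 11, 10.6, 8.14 and 8.94 CPM in the KEC1-7 libraries. Within each set, the first pair of libraries exceeded the second in both genes. Of 19 tested members, 13 were positive with a median of 0.23, and STING1 was the 1 member with an unadjusted p under 0.05 (adjusted p = 0.388 by edgeR's quasi-likelihood test). Of all genes, 5.42% were higher at that threshold. The median of the list was 0.14 without KEC9, -0.14 with KEC9 grouped by its label (6 members positive) and -0.24 without KEC9 and KEC11 (3 positive).

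Several NF-kB-driven cytokines and chemokines lay higher in KEC9-15. Of 31 tested members, 22 were positive, the median was 0.38, 5 were higher and 0 lower at an unadjusted p under 0.05, and 4 lay wholly above KEC1-7, where 5.42% and 3.9% of all genes were higher by these measures. The median was 0.14 with KEC9 grouped by its label and 0.19 without KEC9 and KEC11. AMCF-II, a pig chemokine that attracts neutrophils, had 149, 98.2, 110.1 and 18.9 CPM in the KEC9-15 libraries, against 10.5, 17, 14 and 15.3 CPM in the KEC1-7 libraries. CXCL2, also a neutrophil chemokine, had 160.0, 135, 112 and 49.1 CPM in the KEC9-15 libraries, against 45.2, 47.4, 43.6 and 36.8 CPM in the KEC1-7 libraries. IL1A, the cytokine interleukin-1 alpha, had 57.6, 38, 102 and 23.9 CPM in the KEC9-15 libraries, against 14.6, 21, 15.9 and 9.59 CPM in the KEC1-7 libraries. In these 3 genes the sets did not overlap, and KEC15 lay nearest to KEC1-7.

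They had log2 fold changes of 2.73 (SE 0.52) for AMCF-II, 1.4 (SE 0.31) for CXCL2 and 1.86 (SE 0.43) for IL1A, with adjusted p-values of 0.203, 0.278 and 0.284 by edgeR's quasi-likelihood test. AMCF-II and CXCL2 were the 2 genes that passed when KEC15 was left out. CXCL8, the chemokine interleukin-8, had 62, 35.2, 39 and 5.9 CPM in the KEC9-15 libraries, against 17.1, 15.2, 10.3 and 9.83 CPM in the KEC1-7 libraries, with KEC15 below all of KEC1-7. IL6 had 99.4, 83, 24.2 and 13.1 CPM in the KEC9-15 libraries, against 30.8, 30.2, 12.4 and 9.59 CPM in the KEC1-7 libraries, and its sets overlapped.

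The p-value of IRAK3, described above, was the lowest of this list. TNFAIP3, an inhibitor of NF-kB signalling, had 221, 188, 403 and 132 CPM in the KEC9-15 libraries, against 150.1, 119, 184 and 172 CPM in the KEC1-7 libraries. CCL2, a monocyte chemokine, had 173, 126, 212 and 35.7 CPM in the KEC9-15 libraries, against 95.2, 68.6, 83.4 and 88.9 CPM in the KEC1-7 libraries. In both, KEC13 was the highest, and KEC15 lay within the KEC1-7 range for TNFAIP3 and below it for CCL2. IL1R2 and TNIP3 are not in the list, and were picked after their values were seen because the authors' deposited table ranks them high. IL1R2, the decoy receptor for interleukin-1, had 1.24, 0.423, 18.3 and 1.8 CPM in the KEC9-15 libraries, against 0.119, 0.189, 0.115 and 0.245 CPM in the KEC1-7 libraries, most of it in KEC13. TNIP3, an NF-kB inhibitor, had 15.7, 11.7, 30.4 and 10.9 CPM in the KEC9-15 libraries, against 6.1, 8.94, 6.34 and 4.98 CPM in the KEC1-7 libraries. The fit gave log2 fold changes of 5.02 (SE 1.24) for IL1R2 and 1.38 (SE 0.34) for TNIP3, with adjusted p-values of 0.303 and 0.304 by edgeR's quasi-likelihood test.

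All 6 tested genes of MHC class II presentation had negative log2 fold changes, with a median of -0.62. The mean log2(CPM + 0.5) of the list was 5.86, 5.98, 4.64 and 5.21 in the KEC9-15 libraries, against 6.19, 5.98, 6.07 and 6.25 in the KEC1-7 libraries, and KEC13 and KEC15 were the lowest libraries. SLA-DQB1, a class II beta chain, had 90.6, 98.8, 51.2 and 75.7 CPM in the KEC9-15 libraries, against 139, 115, 180.0 and 197 CPM in the KEC1-7 libraries. CD74, the invariant chain, had 946, 965, 607 and 627 CPM in the KEC9-15 libraries, against 1138, 975, 1323 and 1481 CPM in the KEC1-7 libraries. The sets did not overlap in these 2 genes, which were also the 2 members with an unadjusted p under 0.05. Of all genes, 6.86% were lower at that threshold and 3.61% lay wholly below KEC1-7.

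The log2 fold changes were -0.997 (SE 0.23) for SLA-DQB1 and -0.64 (SE 0.21) for CD74, with adjusted p-values of 0.284 and 0.335 by edgeR's quasi-likelihood test. SLA genes have near-identical copies, so the counts of SLA-DQB1 are uncertain. SLA-DMB, which helps load class II molecules with peptide, had 41, 43.9, 12.2 and 19.4 CPM in the KEC9-15 libraries, against 54.9, 45.3, 33.4 and 41.9 CPM in the KEC1-7 libraries, with KEC9 and KEC11 near KEC1-7. CIITA, the class II transactivator, had 51.1, 50.6, 27.6 and 48.1 CPM in the KEC9-15 libraries, against 42.6, 46.1, 57.1 and 62.1 CPM in the KEC1-7 libraries, and its sets overlapped. Without KEC13 and KEC15 the median of the list was -0.21, against -1.21 without KEC9 and KEC11.

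MHC class I genes were mixed. Of 13 tested members 10 were positive, the median was 0.18 and 0 had an unadjusted p under 0.05. The median was 0.0081 without KEC9 (7 members positive), 0.011 without KEC11, -0.13 with KEC9 grouped by its label (3 positive) and -0.38 without KEC9 and KEC11 (1 positive). NLRC5, the class I transactivator, had 63.3, 53.5, 11.8 and 8.71 CPM in the KEC9-15 libraries, against 19.5, 20, 10.1 and 11.7 CPM in the KEC1-7 libraries. Its high libraries were KEC9 and KEC11, as for the interferon-stimulated genes, and its log2 fold change of 1.16 (SE 0.61) was -0.01 with KEC9 grouped by its label. Among 13 costimulatory and checkpoint ligands the median was 0.24, and it was 0.028 without KEC9 and -0.32 without KEC9 and KEC11. At an unadjusted p under 0.05, 1 was higher and 2 were lower, against 5.42% and 6.86% of all genes. In this list 1 member lay wholly below KEC1-7, where 3.61% of all genes did so. NECTIN3, an adhesion molecule that binds receptors of lymphocytes, had 286, 288, 238 and 239 CPM in the KEC9-15 libraries, against 321, 289, 371 and 371 CPM in the KEC1-7 libraries, and its sets did not overlap (log2 fold change -0.36 (SE 0.13)).

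Coagulation genes were lower in KEC9-15 for F3 and TBXA2R, the 2 of 19 tested members whose sets did not overlap, where 3.61% of all genes lay wholly below KEC1-7. TBXA2R, the thromboxane receptor, had 11.9, 10.8, 6.82 and 8.92 CPM in the KEC9-15 libraries, against 14.2, 14.1, 12.6 and 15.3 CPM in the KEC1-7 libraries. The median of the list was -0.20, and 5 members were lower and 0 higher at an unadjusted p under 0.05, against 6.86% lower among all genes. Without KEC5 and KEC7 that median was -0.083. Complement genes had a median of -0.10 over 11 members, and of 0.16 without KEC13 and KEC15. At an unadjusted p under 0.05, 2 of them were higher and 1 lower, against 5.42% and 6.86% of all genes. C3, the central complement protein, had 1040.2, 1083, 3191 and 1579 CPM in the KEC9-15 libraries, against 340.0, 603, 1303 and 967 CPM in the KEC1-7 libraries, and CLU, a secreted chaperone that limits complement, had 3531, 4128, 4649 and 6505 CPM in the KEC9-15 libraries, against 5844, 5576, 14715 and 12810.4 CPM in the KEC1-7 libraries. Both overlapped between the sets, with C3 highest in KEC13 and CLU highest in KEC5 and KEC7.

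Genes of DNA replication and the cell cycle lay higher in KEC9-15, at 47 of 48 tested members. The median log2 fold change was 0.62. At an unadjusted p under 0.05 there were 19 higher and 0 lower members, and 18 lay wholly above KEC1-7, where 5.42% and 3.9% of all genes did so. The mean log2(CPM + 0.5) was 6.12, 6.05, 5.89 and 5.70 in the KEC9-15 libraries, against 5.76, 5.71, 4.66 and 4.76 in the KEC1-7 libraries. KEC5 and KEC7 were far below the other 6 libraries, and KEC15 lay below KEC1 and KEC3. With KEC9 grouped by its label, the median of the list was 0.395 and 47 of 48 members were positive. Of them, 2 were then higher at an unadjusted p under 0.05, as were 302 of all 14082 genes.

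MCM6, a subunit of the replicative helicase, had the lowest p of the list, at 129.6, 124, 149 and 134 CPM in the KEC9-15 libraries, against 106, 105, 76.5 and 89.6 CPM in the KEC1-7 libraries. CDC45, which works with that helicase, had 27.5, 26.2, 28.5 and 24.2 CPM in the KEC9-15 libraries, against 16.2, 20.3, 10.5 and 9.59 CPM in the KEC1-7 libraries. UHRF1, which carries DNA methylation through replication, had 77.3, 74.9, 74.5 and 61.4 CPM in the KEC9-15 libraries, against 45.8, 50.1, 18.4 and 21.6 CPM in the KEC1-7 libraries. In all 3 genes the sets did not overlap, and the order was KEC9-15, then KEC1 and KEC3, then KEC5 and KEC7.

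Log2 fold changes were 0.51 (SE 0.13) for MCM6, 0.91 (SE 0.23) for CDC45 and 1.08 (SE 0.31) for UHRF1, with adjusted p-values of 0.303, 0.304 and 0.327 by edgeR's quasi-likelihood test. CDC6, which loads the helicase, had 13.6, 12, 11.6 and 8.71 CPM in the KEC9-15 libraries, against 6.7, 8.11, 3.17 and 2.69 CPM in the KEC1-7 libraries. The median of the list was 0.19 without KEC5 and KEC7, with 43 of 48 members positive, and 1.27 without KEC1 and KEC3, when 44 members were called higher and 1 lower. Targets of p53 had a median of -0.12 over 26 members. CDKN1A, an inhibitor of the cell cycle, had 468, 477, 328 and 342 CPM in the KEC9-15 libraries, against 574, 457, 587 and 687 CPM in the KEC1-7 libraries, and TP53I3, a p53 target, had 3.34, 3.27, 2.53 and 3.12 CPM in the KEC9-15 libraries, against 2.03, 1.89, 1.76 and 1.55 CPM in the KEC1-7 libraries. The sets overlapped in CDKN1A and did not in TP53I3 (log2 fold change 0.76 (SE 0.21)).

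Immediate early genes, which cells transcribe first after a stimulus, lay lower in KEC9-15, at 28 of 30 tested members. The median log2 fold change was -0.34. At an unadjusted p under 0.05 there were 12 lower and 0 higher members, and 9 lay wholly below KEC1-7, where 6.86% and 3.61% of all genes did so. The mean log2(CPM + 0.5) was 5.12, 5.09, 4.92 and 4.96 in the KEC9-15 libraries, against 5.39, 5.32, 5.46 and 5.46 in the KEC1-7 libraries, so the list means did not overlap either. The median stayed between -0.47 and -0.24 over the alternatives tried, with KEC9 grouped by its label giving -0.33. The counts moved more. With KEC9 grouped by its label, 5 members were lower at an unadjusted p under 0.05, as were 320 of all 14082 genes. Without KEC1 and KEC3, 9 of 30 members were positive, with 3 higher and 13 lower at that threshold.

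EGR2, a zinc finger transcription factor, had 3.25, 3.58, 4.11 and 6.07 CPM in the KEC9-15 libraries, against 7.3, 7.88, 20.3 and 16.4 CPM in the KEC1-7 libraries. EGR1, its close relative, had 51.8, 55.5, 59.6 and 79.7 CPM in the KEC9-15 libraries, against 94.7, 80, 157 and 148 CPM in the KEC1-7 libraries. FOSL2, a component of the AP-1 transcription factor, had 149, 147, 178 and 164 CPM in the KEC9-15 libraries, against 210.1, 201, 331 and 341 CPM in the KEC1-7 libraries. In these 3 genes the sets did not overlap and KEC5 and KEC7 were the highest.

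They had log2 fold changes of -1.6 (SE 0.37) for EGR2, -0.96 (SE 0.24) for EGR1 and -0.76 (SE 0.19) for FOSL2, with adjusted p-values of 0.284, 0.303 and 0.304 by edgeR's quasi-likelihood test. FOS, also of AP-1, had 26.3, 25.9, 17.6 and 24.3 CPM in the KEC9-15 libraries, against 35.1, 32.8, 27 and 30.1 CPM in the KEC1-7 libraries, without overlap. IER3, an early response gene, had 275, 274, 328 and 279 CPM in the KEC9-15 libraries, against 365, 354, 483 and 464 CPM in the KEC1-7 libraries. NR4A1, a nuclear receptor, had 15.7, 13.4, 10.7 and 14.1 CPM in the KEC9-15 libraries, against 12, 9.88, 71.6 and 71.2 CPM in the KEC1-7 libraries, which set KEC5 and KEC7 apart from the other 6 libraries.

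Matrix and mesenchymal genes had negative log2 fold changes in 36 of 45 tested members, with a median of -0.36. At an unadjusted p under 0.05 there were 14 lower and 0 higher members, and 6 lay wholly below and 1 wholly above KEC1-7. Of all genes, 6.86% were lower at that threshold and 3.61% lay wholly below. THBS2, a secreted matrix glycoprotein, had 4.84, 5.15, 3.96 and 6.34 CPM in the KEC9-15 libraries, against 10.2, 7.88, 9.89 and 9.02 CPM in the KEC1-7 libraries. SPARC, a collagen-binding matrix protein, had 2074, 2391, 2041 and 2509 CPM in the KEC9-15 libraries, against 3238, 2915, 5574 and 4728 CPM in the KEC1-7 libraries. COL1A1, the main chain of type I collagen, had 4075, 4547, 6649 and 6306 CPM in the KEC9-15 libraries, against 7019.9, 6582, 11349 and 10890.0 CPM in the KEC1-7 libraries. KEC5 and KEC7 were the highest in SPARC and COL1A1, and COL1A1 overlapped between the sets.

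The fit gave log2 fold changes of -0.86 (SE 0.18) for THBS2, -0.87 (SE 0.22) for SPARC and -0.73 (SE 0.25) for COL1A1, with adjusted p-values of 0.258, 0.306 and 0.35 by edgeR's quasi-likelihood test. CCN1, a secreted matricellular protein, had 606, 586, 452 and 537 CPM in the KEC9-15 libraries, against 662, 709, 1428 and 1304 CPM in the KEC1-7 libraries. CCN2, of the same family, had 327, 320.3, 380.0 and 299 CPM in the KEC9-15 libraries, against 370.0, 347, 1038 and 999 CPM in the KEC1-7 libraries. In both, KEC5 and KEC7 were the highest. TGFB2, a growth factor that promotes matrix production, had 77.8, 79.2, 41.2 and 62.9 CPM in the KEC9-15 libraries, against 120.4, 110.2, 103 and 82.3 CPM in the KEC1-7 libraries, without overlap. The median of the list was -0.097 without KEC5 and KEC7, with 21 of 46 members positive, and -0.19 with KEC9 grouped by its label.

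The 3 muscle-type contractile genes below were picked after their values were seen, because the authors' deposited table calls them. They do not stand for contractile genes as a class. DES, the intermediate filament desmin, had 3.25, 3.46, 7.15 and 4.75 CPM in the KEC9-15 libraries, against 13.8, 11.6, 14.4 and 14 CPM in the KEC1-7 libraries. LMOD1, which nucleates actin in smooth muscle, had 6.03, 6.27, 4.29 and 8.82 CPM in the KEC9-15 libraries, against 15.9, 13.2, 19.5 and 17.7 CPM in the KEC1-7 libraries. MYH11, the smooth muscle myosin heavy chain, had 0.30, 0.0769, 0.293 and 0.203 CPM in the KEC9-15 libraries, against 0.655, 0.679, 0.649 and 0.612 CPM in the KEC1-7 libraries. The sets did not overlap in these 3 genes, which were picked from these same data. MYH11 was low throughout, at no more than 0.679 CPM in any library. The log2 fold changes were -1.53 (SE 0.25) for DES, -1.38 (SE 0.22) for LMOD1 and -1.56 (SE 0.40) for MYH11, with adjusted p-values of 0.137, 0.137 and 0.307 by edgeR's quasi-likelihood test.

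Metabolic and stress lists had smaller medians, between -0.21 and 0.24. In the hypoxia and glycolysis list, 25 of 33 members were positive. At an unadjusted p under 0.05, 5 were higher and 0 lower, and 2 lay wholly above KEC1-7. Of all genes, 5.42% were higher at that threshold and 3.9% lay wholly above. The median of this list was 0.23, and -0.085 without KEC13 and KEC15. ANKRD37, a target of the hypoxia-inducible factor, had 2.91, 4.73, 4.92 and 4.24 CPM in the KEC9-15 libraries, against 0.804, 1.13, 1.87 and 1.14 CPM in the KEC1-7 libraries. EGLN3, an oxygen-sensing hydroxylase, had 12.8, 15.5, 11.3 and 10.6 CPM in the KEC9-15 libraries, against 6.76, 6.07, 8.1 and 8.2 CPM in the KEC1-7 libraries. Neither overlapped between the sets, and the log2 fold changes were 1.76 (SE 0.31) and 0.78 (SE 0.17), with adjusted p-values of 0.152 and 0.275 by edgeR's quasi-likelihood test. ANKRD37 overlaps UFSP2 on the opposite strand, which averaged 24 and 27.1 CPM in KEC9-15 and KEC1-7.

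In the amino acid and unfolded protein stress list, 26 of 40 members were positive, with 5 higher and 1 lower at an unadjusted p under 0.05. Among all genes, 5.42% were higher and 6.86% lower at that threshold. In this list 4 members lay wholly above and 0 wholly below KEC1-7, against 3.9% and 3.61% of all genes. The list median was 0.11, and -0.014 without KEC9 and KEC11. STC2, a secreted glycoprotein induced by stress, had 12.7, 13.5, 17.5 and 19 CPM in the KEC9-15 libraries, against 7.42, 9.65, 7.83 and 6.08 CPM in the KEC1-7 libraries. PCK2, a mitochondrial enzyme of gluconeogenesis, had 35.6, 38.6, 49 and 54.5 CPM in the KEC9-15 libraries, against 29.2, 27.7, 30.5 and 33.3 CPM in the KEC1-7 libraries. SLC7A5, an importer of large neutral amino acids, had 312, 291, 302 and 262 CPM in the KEC9-15 libraries, against 226, 240.1, 135 and 137 CPM in the KEC1-7 libraries. The sets did not overlap in these 3 genes, and the log2 fold change of STC2 was 1.01 (SE 0.19) with an adjusted p of 0.195 by edgeR's quasi-likelihood test.

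Single members of the other stress and lipid lists also differed in size. HMOX1, the heme-degrading enzyme, had 48, 34.9, 47 and 29.9 CPM in the KEC9-15 libraries, against 25.1, 28.9, 6.72 and 8.77 CPM in the KEC1-7 libraries. GCLM, which takes part in glutathione synthesis, had 102, 99.8, 115 and 124 CPM in the KEC9-15 libraries, against 85.9, 85, 90 and 93.4 CPM in the KEC1-7 libraries. HSPB8, a small heat shock protein, had 9.84, 12.7, 6.82 and 11.4 CPM in the KEC9-15 libraries, against 15.1, 13.1, 16.2 and 18.6 CPM in the KEC1-7 libraries. The sets did not overlap in these 3 genes, and the log2 fold changes were 1.2, 0.31 and -0.63, with adjusted p-values of 0.368, 0.334 and 0.334 by edgeR's quasi-likelihood test. Of 16 heat shock members, 12 were positive, with 2 wholly above and 1 wholly below KEC1-7. At an unadjusted p under 0.05, 2 of them were higher and 3 lower, against 5.42% and 6.86% of all genes. In the oxidative stress list, 14 of 23 members were positive, with 2 wholly above and 0 wholly below. Of all genes, 3.9% lay wholly above and 3.61% wholly below.

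ABCG1, an exporter of cholesterol, had 0.0856, 0.154, 0.22 and 0.305 CPM in the KEC9-15 libraries, against 0.774, 0.98, 3.67 and 1.88 CPM in the KEC1-7 libraries. All 4 of KEC9-15 lay below all 4 of KEC1-7, and the log2 fold change was -3.19 (SE 0.61). NPC1, which moves cholesterol out of lysosomes, had 63, 70.1, 71.3 and 60.4 CPM in the KEC9-15 libraries, against 41.9, 40.3, 55.1 and 45.9 CPM in the KEC1-7 libraries. Its sets did not overlap either, whereas 31 of 38 lysosomal and autophagy genes had negative log2 fold changes, with a median of -0.21. Without KEC5 and KEC7 that median was -0.012, with 16 members positive. The cholesterol list had a median of 0.085, the heat shock list 0.24, the oxidative stress list 0.092 and the mitochondrially encoded list -0.092. Leaving out a pair of libraries turned the sign of each of these, to -0.15 for cholesterol without KEC1 and KEC3, -0.015 for heat shock without KEC9 and KEC11, -0.059 for oxidative stress without KEC13 and KEC15 and 0.18 for the mitochondrial list without KEC5 and KEC7. For cholesterol, leaving out 1 library was enough, at -0.0028 without KEC11 and -0.0011 without KEC3. The mitochondrial list likewise turned to 0.182 without KEC5 alone. ATP8, a subunit of the mitochondrial ATP synthase with the lowest p of the mitochondrial list, had 10.7, 8.04, 8.95 and 5.63 CPM in the KEC9-15 libraries, against 7.42, 12.9, 18.9 and 9.38 CPM in the KEC1-7 libraries and overlaps ATP6.

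**Figure D4:**
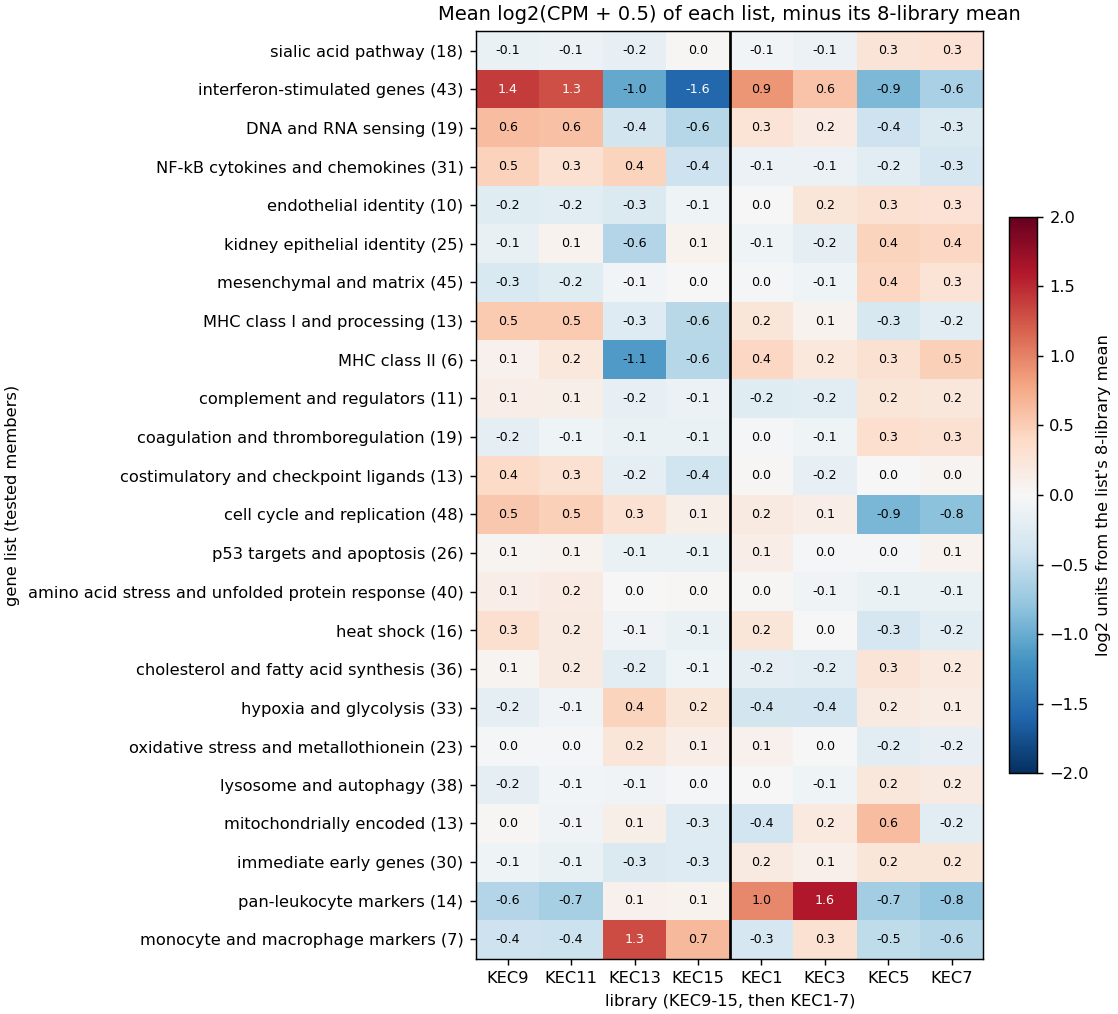
Mean log2(CPM + 0.5) over the tested members of each list in each library, less the mean over the 8 libraries, with the number of tested members in brackets, KEC9-15 left and KEC1-7 right of the line. Interferon-stimulated genes are high in KEC9, KEC11, KEC1 and KEC3, the cell cycle list is low in KEC5 and KEC7, pan-leukocyte markers are high in KEC1 and KEC3 and monocyte markers in KEC13 and KEC15.

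Endothelial and kidney epithelial markers mostly had negative log2 fold changes, at 9 of 10 and 20 of 25 tested members. At an unadjusted p under 0.05, 1 endothelial marker was higher and 4 were lower, and 1 epithelial marker was higher and 3 were lower. Of all genes, 5.42% were higher and 6.86% lower at that threshold, while 3.9% lay wholly above and 3.61% wholly below KEC1-7. The 4 lower endothelial markers were S1PR1, PLVAP, EGFL7 and ESAM, with log2 fold changes of -2.24, -1.25, -0.83 and -0.77. The 3 lower epithelial markers were ESRP2, ESRP1 and CLDN4, at -0.75, -0.73 and -0.31. PLVAP, of fenestrated endothelium, had 0.257, 0.154, 0.22 and 0.339 CPM in the KEC9-15 libraries, against 0.447, 0.754, 0.573 and 0.571 CPM in the KEC1-7 libraries, without overlap. The higher endothelial marker, FLT1, a receptor for the growth factor VEGF, had 49.4, 51.6, 63.2 and 45.9 CPM in the KEC9-15 libraries, against 38.4, 41.5, 44.2 and 35.7 CPM in the KEC1-7 libraries. The higher epithelial marker, ELF3, a transcription factor, had 83.8, 91.7, 70.8 and 76 CPM in the KEC9-15 libraries, against 44.6, 43.8, 61.3 and 63.2 CPM in the KEC1-7 libraries. The sets did not overlap in either gene, and the log2 fold changes were 0.39 (SE 0.13) and 0.60 (SE 0.15), with adjusted p-values of 0.334 and 0.307 by edgeR's quasi-likelihood test. The medians of their lists were -0.53 for endothelial and -0.38 for kidney epithelial members, and the epithelial median was 0.025 without KEC5 and KEC7. KRT18, a keratin, had 300.5, 342, 173 and 333 CPM in the KEC9-15 libraries, against 508, 425, 313 and 356 CPM in the KEC1-7 libraries, and it overlapped between the sets.

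Leukocyte transcripts were unevenly spread over the libraries. The 17 pan-leukocyte markers in the table summed to 64.1, 60.2, 77.3 and 85.9 CPM in the KEC9-15 libraries, against 125, 174, 58.6 and 56 CPM in the KEC1-7 libraries. PTPRC, the leukocyte surface protein CD45, had 0, 0, 0.403 and 0.509 CPM in the KEC9-15 libraries, against 4.23, 8.45, 0 and 0 CPM in the KEC1-7 libraries. LCK, a kinase of T cells, had 0, 0, 0.0367 and 0.136 CPM in the KEC9-15 libraries, against 1.76, 3.69, 0 and 0 CPM in the KEC1-7 libraries. RAC2, a leukocyte GTPase, had 0.257, 0, 1.14 and 0.373 CPM in the KEC9-15 libraries, against 4.14, 7.31, 0.229 and 0.286 CPM in the KEC1-7 libraries. KEC1 and KEC3 held most of these transcripts, and the other 6 libraries had at most 1.14 CPM of each. The log2 fold change of RAC2 was -2.74 (SE 1.22) with an adjusted p of 0.407 by edgeR's quasi-likelihood test, and 0.79 without KEC1 and KEC3.

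The 9 monocyte and macrophage markers summed to 64.1, 68.4, 261 and 143 CPM in the KEC9-15 libraries, against 52.8, 75.9, 63.1 and 51.5 CPM in the KEC1-7 libraries. Of 7 tested members, 6 were positive, with a median of 1.11, and -0.12 without KEC13 and KEC15 (3 of 8 positive). At an unadjusted p under 0.05, 3 were higher and 1 was lower, against 5.42% and 6.86% of all genes. In this list 1 member lay wholly above and 1 wholly below KEC1-7, against 3.9% and 3.61% of all genes. CD14, a co-receptor for bacterial lipopolysaccharide, had 15.2, 14.5, 30.9 and 16.9 CPM in the KEC9-15 libraries, against 8.04, 10.8, 8.44 and 8.73 CPM in the KEC1-7 libraries, without overlap between the sets. CD163, a scavenger receptor of macrophages, had 0, 0.0384, 6.09 and 4.2 CPM in the KEC9-15 libraries, against 1.1, 3.47, 0.0764 and 0 CPM in the KEC1-7 libraries. S100A8, a calcium-binding protein of myeloid cells, had 3.0, 3.08, 24.1 and 8.34 CPM in the KEC9-15 libraries, against 2.11, 4.07, 2.56 and 3.18 CPM in the KEC1-7 libraries. KEC13 was the highest in all 3 genes, followed by KEC15. The part of these transcripts in the cytokine and class II values above, where KEC13 or KEC15 also stood apart, was not tested.

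B cell and T or NK cell markers were mostly low. Their summed levels were 8.19 to 9.54 CPM in KEC9-15 and 6.13 to 11.2 CPM in KEC1-7 for 5 B cell markers. They were 44.7 to 61.0 CPM in KEC9-15 and 56.0 to 70.4 CPM in KEC1-7 for 7 T and NK cell markers. Most of the last sum came from IL2RB, a receptor chain for interleukin-2, at 44.8, 51.8, 40.1 and 38.9 CPM in the KEC9-15 libraries, against 46.4, 48.9, 55.6 and 49 CPM in the KEC1-7 libraries. NKG7, a protein of cytotoxic granules, had 0.428, 0.346, 0.147 and 0.136 CPM in the KEC9-15 libraries, against 0.864, 1.13, 0.802 and 1.84 CPM in the KEC1-7 libraries. Its sets did not overlap, KEC7 was the highest, and the log2 fold change was -2.13 (SE 0.47) with an adjusted p of 0.278 by edgeR's quasi-likelihood test. All 4 tested T and NK cell markers had negative log2 fold changes. JCHAIN, which joins antibody subunits, had 1.93, 1.96, 1.17 and 2.0 CPM in the KEC9-15 libraries, against 1.64, 2.04, 1.6 and 1.47 CPM in the KEC1-7 libraries, and GP9, a platelet glycoprotein and the 1 marker of its list in the table, had 2.7, 3.38, 4.25 and 5.46 CPM in the KEC9-15 libraries, against 3.87, 4.03, 6.3 and 8.49 CPM in the KEC1-7 libraries. The sets overlapped in JCHAIN and GP9. On the opposite strand, JCHAIN overlaps UTP3 (11.5 and 9.74 CPM in KEC9-15 and KEC1-7) and GP9 overlaps RAB43 (62.6 and 72.8 CPM). Both neighbours were more abundant, so these low counts may not be fully separate from theirs.

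The authors' deposited table, made with all 18 libraries, lists 209 of 15240 genes (1.37%) at an FDR under 0.05, 64 higher (0.42%) and 145 lower (0.951%). Of these 209, 197 were tested here, and all 197 had the same sign and an unadjusted p under 0.05, while 1 of them passed. In 172 of the 209 the sets did not overlap. These are the same libraries, so the 2 analyses are not independent. Among the list members in it were 7 higher cell cycle genes, 2 higher cytokine genes, 4 lower immediate early genes and 3 lower matrix genes, CCN1 standing in both of the last lists. The others in it were ANKRD37 and ADM of the hypoxia list, STC2 and HMOX1, which were higher, and F3, ABCG1, ABCC2, HSPB8 and NKG7, which were lower.

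In the authors' deposited table the log2 fold change was 3.25 for TNFSF14 and 2.7 for AMCF-II, with FDRs of 0.00351 and 0.0124. On the lower side the authors' deposited table gives -2.26 for SPOCK2 and -1.74 for F3, with FDRs of 3.13e-06 and 0.000466. CYP1A1, an enzyme induced through the aryl hydrocarbon receptor and picked after its values were seen, has -4.81 in the authors' deposited table. Its levels were 0.642, 1.19, 4.29 and 5.53 CPM in the KEC9-15 libraries, against 158, 169, 0.42 and 0.49 CPM in the KEC1-7 libraries, with only KEC1 and KEC3 high. RUNX3, a transcription factor of T and NK cells picked in the same way, had 0.685, 0.538, 1.06 and 0.712 CPM in the KEC9-15 libraries, against 7.18, 12.5, 0.535 and 0.938 CPM in the KEC1-7 libraries. FYN, a kinase also abundant in T cells, had 2.82, 3.5, 7.81 and 5.53 CPM in the KEC9-15 libraries, against 24.4, 44.8, 4.47 and 4.41 CPM in the KEC1-7 libraries. In these 3 genes the sets overlapped, and none of them is in the leukocyte marker lists. KEC1 and KEC3 were also the libraries with the high pan-leukocyte sums, and whether these levels are linked was not tested.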

How the data were processed

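Total RNA of 18 libraries was sequenced, and 8 were analysed here. Per the submitters' processing notes, the tools were STAR 2.7.10a, Subread 2.0.3 with featureCounts, edgeR 3.40.2 and FastQC 0.11.5, and the build was susScr11. The sources used here do not give the annotation or the treatment of strand and of multi-mapped reads. The authors deposited raw whole-number counts per gene. The log2 values, log2 CPM and log2 fold changes, were deposited by the authors, per the file headers, and recomputed log2 CPM matched to 4.97e-14. The signed fold change, a score, and each p-value and FDR were deposited by the authors. Gene length, as deposited by the authors, was not used. Of 15240 genes, 3248 had no symbol.

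From the counts of KEC9, KEC11, KEC13 and KEC15 against KEC1, KEC3, KEC5 and KEC7, genes were kept with edgeR's filterByExpr (13810 genes), normalised by TMM and fitted with robust dispersion for edgeR's quasi-likelihood test (R 4.3.3 with edgeR 4.0.16 and limma 3.58.1). P-values are two-sided, and the threshold was a Benjamini-Hochberg adjusted p under 0.05 over all genes. The procedure was tested on simulated data. Of genes changed by 1 on the log2 scale 67 of 100 were recovered, and of those changed by 2, 95 of 100, with 13 false calls. The simulated libraries were drawn without the close pairs seen here, so the simulation does not show how the test behaves with such pairs. Errors of means are SDs, and SE is that of the log2 fold change. For ST8SIA6, log2(CPM + 0.5) was compared in an exact permutation test. Reads of overlapping genes and of near-identical copies cannot be told apart here.

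The named genes were ST8SIA6, then up to 10 passing genes in each direction, filled to 6 by the lowest p among genes with a symbol and a mean of at least 5 CPM, then for each list up to 3 passing members or else the 1 with the lowest p and at least 1 CPM. Other list members were chosen after their values were seen. A named gene under this rule is not reported here. The sets of libraries, the gene lists and the tests were chosen with earlier results of these data known.

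Alternatives were DESeq2 1.42.0, limma-voom, RLE scaling, a minimum of 5 CPM in 4 libraries, no filter, all 18 libraries in 1 fit, KEC9 grouped by its label, KEC1 and KEC3 left out, mitochondrial genes left out, a fold change limit of 1 on the log2 scale, pseudocounts of 0.1 and 1 and each library left out. The likelihood ratio test and leaving out KEC5 with KEC7, KEC9 with KEC11 or KEC13 with KEC15 were added after the data were seen.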

Additional observations from a re-analysis of the deposited data

Results flagged for a closer look

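A gap test within sets of 4 libraries marked 4 of 76 sets examined over the named genes, and chance marks about 1 in 20. ST8SIA6 stood at 2.27 CPM in KEC11, against 0 to 0.102 CPM in the other 3 libraries of KEC9-15. AEBP1 stood at 63.5 CPM in KEC13, against 53.3 to 54.8 CPM in the other 3. JCHAIN stood at 1.17 CPM in KEC13, against 1.93 to 2.0 CPM in the other 3. CD14 stood at 30.9 CPM in KEC13, against 14.5 to 16.9 CPM in the other 3, and KEC13 also held the highest monocyte marker sum of the 8 libraries, 260.9 CPM.

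ST8SIA6 was also counted in libraries outside the comparison, scaled over all 18 libraries, where KEC1-7 reached 0 to 0.962 CPM. It stood at 2.89 CPM in KEC19, labelled St8i6a plasmid, at 29 CPM in KEC23, labelled cell-cell interaction, and at 1.36 CPM in KEC27, with that label too. KEC17, labelled St8i6a plasmid, and KEC21 and KEC25, labelled cell-cell interaction, had 0 counts, which allows up to 0.154, 0.167 and 0.183 CPM. With the libraries paired in the order of their numbers, KEC1 with KEC3, KEC5 with KEC7 and so on to KEC25 with KEC27, the second of each pair had more counts than the first, a pattern noticed after the values were seen. The next pair went the other way, with 2 counts in KEC29, labelled cell-cell interaction, and 1 in KEC31, labelled wild type.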

How the results depend on the processing

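No paired analysis was possible because the labels give no replicate numbers and do not tie libraries to experiments. The count of 1 gene was 1 with RLE scaling, no filter, at least 5 CPM, limma-voom, mitochondrial genes left out and a fold change limit of 1 on the log2 scale. It was 256 with DESeq2, 120 with the likelihood ratio test, 3917 without KEC1 and KEC3, 13 without KEC5 and KEC7, 5 without KEC13 and KEC15, and 0 with all 18 libraries in 1 fit, with KEC9 grouped by its label and without KEC9 and KEC11. Leaving out 1 library gave 0 to 2 genes. The cause was not tested. AEBP1 had negative log2 fold changes of -1.31 to -0.99 over all alternatives. Of 37 named genes with a fit, 33 kept their sign throughout. The 4 others reversed, PARP14 to -0.17 and NLRC5 to -0.58 without KEC9 and KEC11, NLRC5 to -0.0127 with KEC9 by its label, RAC2 to 0.79 without KEC1 and KEC3, and JCHAIN to -0.0168 with KEC9 by its label, -0.0026 without KEC15, -0.0654 without KEC5 and KEC7 and -0.0841 without KEC9 and KEC11. With 1 library left out JCHAIN ranged from -0.0026 to 0.22. The ST8SIA6 difference was -0.40 to 0.55 with 1 library left out, the negative value being that without KEC11, and 0.25 and 0.16 at the other pseudocounts. The interferon list median ran from -1.49 to 1.16. Leaving out a pair leaves 2 libraries in its set, and these are themselves a close pair. Counts of under about 5 CPM, as for ST8SIA6, TNFSF14, ABCG1 and PTPRC, limit the precision.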
